A study of Mus musculus with 6 samples.

Results

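The 10 genes described here handle iron in the cultured mouse cortical astrocytes of this study, and were chosen by gene name: Lcn2, Fth1, Ftl1, Tfrc, Trf, Slc40a1, Slc11a1, Hmox1, Cp and Steap4. All 10 were found, each as a single row among the 55357 genes listed. The comparison was between 3 cultures that had been transfected with a plasmid driving FLAG-tagged BRAF K499E from the CMV promoter (KE) and 3 nontransfected cultures (NT), with RNA harvested at 48 hours and sequenced as poly(A) libraries by a stranded kit. The cells came from the cortices of C57BL/6 embryos at embryonic day 18 and were plated, shaken and replated before use. NT cultures carry the label naive for genotype, and all 6 share the same source and harvest.

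The K499E change, reported in patients with RASopathies, leaves the BRAF kinase permanently active. Comparing KE with NT sets RNA levels in astrocyte cultures given this variant beside those in untreated ones. The CMV promoter is not restricted to a cell type, and the share of cells that took up the plasmid is not given in the sources used here. No empty plasmid or wild-type BRAF culture is analysed here, so transfection itself and BRAF KE cannot be told apart in any difference below. Nothing in the labels says that the replicates were separate preparations, so p-values measure only the spread between these cultures.

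Iron enters most cells when transferrin (Trf) in the surroundings binds the transferrin receptor (Tfrc), is stored inside ferritin cages made of heavy (Fth1) and light (Ftl1) chains, and leaves through ferroportin (Slc40a1) with the help of the ferroxidase ceruloplasmin (Cp). Heme oxygenase 1 (Hmox1) frees iron from heme, NRAMP1 (Slc11a1) moves it out of the phagosomes of macrophages, Steap4 is a metalloreductase that reduces it, and lipocalin 2 (Lcn2) binds the siderophores with which bacteria capture it and is secreted by reactive astrocytes. When iron is scarce, iron regulatory proteins bind a hairpin in certain mRNAs, which blocks translation of the ferritins and ferroportin and stabilizes the mRNA of Tfrc.

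These hairpins, the iron-responsive elements, are shown because 4 of the 10 genes share them and the 4 behaved differently in the RNA. The canonical protein-coding transcript of each gene in Gencode was searched on its own strand for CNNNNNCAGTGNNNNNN, in which the 5 bases on either side of the 6-base loop had to pair, G-T pairs included. A match was found in 1.33% of all 21593 canonical protein-coding transcripts. The 30 bases around each match follow, 5′ to 3′ as DNA, with the loop in capitals.
Fth1 5′ UTR, chr19:9960095-9960124 of GRCm39, plus strand: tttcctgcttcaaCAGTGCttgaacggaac
Ftl1 5′ UTR, chr7:45109203-45109232 of GRCm39, minus strand: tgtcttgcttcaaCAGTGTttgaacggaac
Slc40a1 5′ UTR, chr1:45964625-45964654 of GRCm39, minus strand: ccaacttcagctaCAGTGTtagctaagttt
Tfrc 3′ UTR, chr16:32450036-32450065 of GRCm39, plus strand: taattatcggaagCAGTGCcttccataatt
Tfrc 3′ UTR, chr16:32450415-32450444 of GRCm39, plus strand: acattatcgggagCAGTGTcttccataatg
Tfrc 3′ UTR, chr16:32450480-32450509 of GRCm39, plus strand: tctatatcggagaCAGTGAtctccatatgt
Tfrc 3′ UTR, chr16:32450527-32450556 of GRCm39, plus strand: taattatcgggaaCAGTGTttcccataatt
The elements of Fth1 and Ftl1 differ at 3 of 30 bases, while that of Slc40a1 differs from each of them at 17. The 4 elements of Tfrc differ from one another at 5 to 12 bases. The canonical transcripts of the other 6 genes held no match to these letters.

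Normalized counts are estimated read counts per gene divided by a size factor for each culture, and log2FC is the difference between KE and NT in the mean log2 of the normalized count plus 1, which understates the change of low genes. All 10 genes passed the filter of a mean of at least 10. Of these, 5 were higher in KE (Lcn2, Hmox1, Steap4, Fth1 and Cp), 3 were lower (Slc11a1, Slc40a1 and Trf) and 2 were not called (Ftl1 and Tfrc), at an adjusted p-value under 0.05 from limma. Across the transcriptome 51.3% of the 15280 tested genes were called, 25.3% higher and 26% lower in KE, so that calls were common in these cultures. The groups did not overlap in the same 8 genes, while 59.9% of all tested genes showed no overlap. The median log2FC of the 10 genes was 0.14, with a range of -3.52 to 1.50, beside a median of 0.0018 over all tested genes. Together they made up 1.42% to 1.45% of all normalized counts in the KE cultures and 0.958% to 1.08% in the NT cultures.

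**Figure D1:**
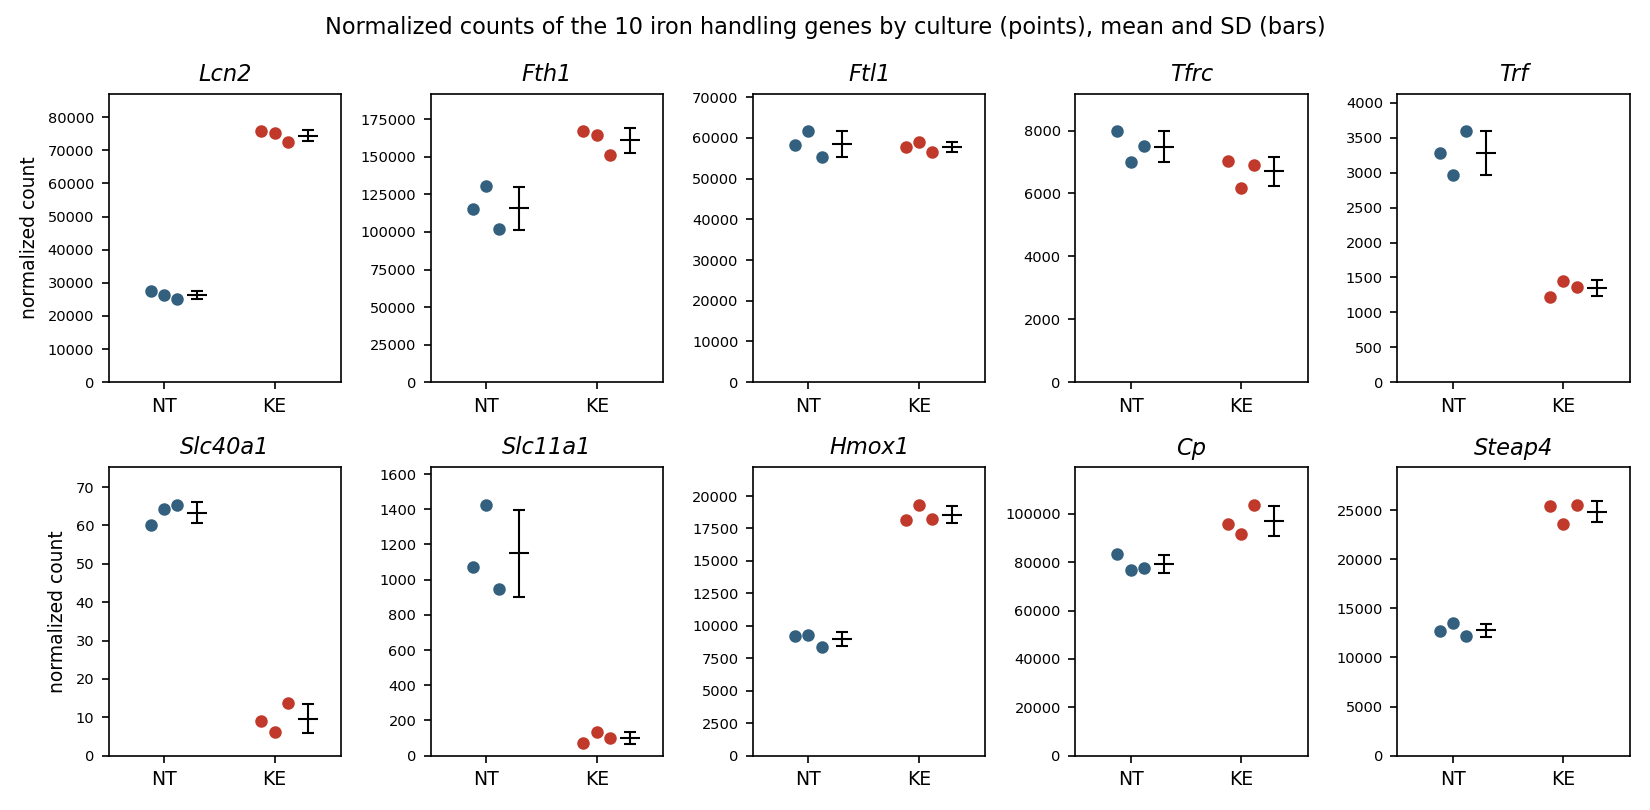
Normalized counts (y axes, from 0) of each of the 10 genes in the 3 NT (blue) and 3 KE (red) cultures, with the group mean and SD in black. KE and NT cultures are apart in 8 genes and overlap in Ftl1 and Tfrc.

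Of the sequencing itself, the approximate depth was 24500000 to 34100000 reads per culture, lowest in KE replicate 2. The transfected gene Braf had 34933 to 40978 normalized counts in the KE cultures and 811 to 946 in the NT cultures, in a row that does not separate the plasmid from the chromosome. Of 12 astrocyte markers, 11 were tested and 7 were higher and 2 lower in KE; their summed normalized count was 157453 to 160204 in KE and 113744 to 119144 in NT, with Slc1a3 and Gfap the highest. Of 12 vascular and mesenchymal markers, 10 were tested, and 3 were higher and 4 lower, with sums of 3150 to 3294 in KE and 3665 to 4772 in NT. Of 10 neuron markers, 8 were tested, and 2 were higher and 2 lower, with sums of 7039 to 7491 in KE and 9002 to 9678 in NT.

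Lcn2 rose most among the 10 genes. In KE replicates 1, 2 and 3 it had 75778, 75076 and 72539 normalized counts, and it had 27435, 26408 and 25211 in NT replicates 1, 2 and 3. Every KE culture lay far above every NT culture, and cultures within a group were close together. The KE mean of 74464 ± 1704 (SD, n = 3) was 2.83-fold the NT mean of 26351 ± 1113 (SD, n = 3). On the log2 scale this was a log2FC of 1.50 ± 0.06 (SE), with an adjusted p of 1.8e-08 from limma. This was above the log2FC of 97.7% of all tested genes. The gene (ENSMUSG00000026822) lies at chr2:32274645-32278264 of GRCm39, minus strand. The summed astrocyte markers given above were 1.37-fold higher in KE, and their part in the result was not tested. In such bulk cultures more or fewer cells of a type and more or less RNA per cell cannot be told apart.

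The 5 genes outside the list whose centred log2 values lay nearest to those of Lcn2 over the 6 cultures, among 12063 genes with a mean of at least 100, were Ccl7, Lcat, Ap3b2, Ypel5 and Tm4sf1. Their root mean square distance from Lcn2 was 0.048 to 0.062 on the log2 scale. Ccl7, a chemokine that attracts monocytes, had a log2FC of 1.46. Lcat, which esterifies cholesterol in lipoproteins, had one of 1.54.

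Steap4 nearly doubled. Cultures held 25374, 23615 and 25552 normalized counts in the KE replicates and 12656, 13465 and 12153 in the NT replicates. No KE culture came near the NT range. The log2FC was 0.96 ± 0.06 (SE, adjusted p = 3.1e-07 by limma), a 1.95-fold difference of the means. Steap4 (ENSMUSG00000012428) lies at chr5:8010260-8032214 of GRCm39, plus strand. Of the other members of the reductase family, Steap1 and Steap2 were higher in KE by a log2FC of 0.47 and 0.33, and Steap3 had a log2FC of 0.02 and was not called. Steap1 lost its call without KE replicate 3 (0.42, adjusted p = 0.051 by limma). Steap2, whose groups overlapped, lost it without KE replicate 2 (0.32), KE replicate 3 (0.23), NT replicate 1 (0.33) or NT replicate 2 (0.25) and in a fit with no variance trend (adjusted p = 0.081 by limma).

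Lcn2 and Steap4 are both known to be induced by inflammatory cytokines through NF-kappaB and C/EBP factors, and their promoters are printed because both genes rose strongly. RefSeq windows of 300 bases around the start, on GRCm38.p6, were held for 7 of the 10 genes, 10 windows in all, and were searched on both strands for 5 motifs. The C/EBP motif TTGCNNAA was found in 4 of these windows (of Lcn2, Steap4, Cp and Fth1) and in 10.8% of all 32851 windows. The kappaB motif was found in those of Steap4 and Ftl1 and in 8.46% of all windows. AP-1 (TGANTCA) was found in that of Cp and in 7.81% of all windows. The motif GAAANNGAAA of interferon-stimulated genes (3.44% of all windows) and the antioxidant response element TGACNNNGC (12.4%) matched in none of the 7. The 250 bases before the start follow, 5′ to 3′ on the strand of the gene, with the C/EBP match in capitals.
Lcn2, chr2:32387740-32387989 of GRCm38.p6, minus strand: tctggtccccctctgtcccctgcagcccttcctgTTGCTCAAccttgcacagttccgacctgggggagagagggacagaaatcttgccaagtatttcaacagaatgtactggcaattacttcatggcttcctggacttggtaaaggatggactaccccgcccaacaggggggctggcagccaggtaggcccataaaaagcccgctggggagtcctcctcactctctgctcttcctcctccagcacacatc
Steap4, chr5:7960222-7960471 of GRCm38.p6, plus strand: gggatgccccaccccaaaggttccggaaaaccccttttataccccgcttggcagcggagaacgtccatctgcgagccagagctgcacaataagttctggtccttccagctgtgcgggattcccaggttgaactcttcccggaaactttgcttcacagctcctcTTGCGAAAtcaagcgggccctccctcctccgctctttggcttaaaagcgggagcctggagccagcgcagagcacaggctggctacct
The match begins 216 bases before the start in Lcn2 and 87 bases before it in Steap4. In Steap4 kappaB matches begin 250 and 226 bases before the start. A match is a description of the letters and says nothing about binding in these cells.

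Transcripts of factors known to regulate one or more of the 10 genes, or such a factor, were compared as a list of 15, of which all were tested, 9 were higher and 2 lower in KE, with a median log2FC of 0.26. That is 73.3% called, beside 51.3% of all tested genes. Cebpd and Cebpb, the C/EBP factors of inflammation, had a log2FC of 0.70 and 0.60. Among NF-kappaB genes, Relb (0.62), the coactivator Nfkbiz (0.34) and Rela (0.26) were higher, and Nfkb1 (0.17) was not called. Stat3, which carries the IL-6 signal, had a log2FC of 0.33. Nfe2l2, which encodes the NRF2 activator of Hmox1 and the ferritins, and Keap1, its inhibitor, had a log2FC of 0.38 and 0.32, while Bach1, a repressor of the same genes, was lower with a log2FC of -0.30. Hif1a (0.18, adjusted p = 0.0499 by limma, with overlapping groups) was called higher and its partner Arnt (-0.26) lower, and Epas1 (-0.07), Mitf (0.08) and Tfe3 (0.09) were not called. The calls of Rela and Hif1a were not stable, as each was lost when any of several single cultures was left out. With all cultures kept, both calls were also lost in a fit with no variance trend. That of Hif1a was further lost with a pseudocount of 0.5, without the mean filter, after quantile normalization and after 75th percentile scaling. Nfkb1 (0.24) was called without NT replicate 2.

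The cytokines known to induce Lcn2 moved in opposite directions. Il6 had 480, 469 and 566 normalized counts in the KE replicates and 120, 110 and 54.6 in the NT replicates, a log2FC of 2.48. Lif, of the same family, had a log2FC of 2.62. By contrast, Il1a, Il1b, Tnf and Osm were lower in KE, with log2FC of -2.90, -2.37, -3.60 and -2.89. Il17a is listed at 0 in all 6 cultures. So 2 of the 6 tested cytokines rose and 4 fell. Il1a, Il1b, Tnf and Osm are known as products of microglia and macrophages, whose 21 tested markers were all lower in KE, and the part of those cells was not tested.

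Hmox1 doubled in KE. It had 18183, 19335 and 18192 normalized counts in the KE replicates against 9247, 9291 and 8350 in the NT replicates. The ranges were well apart. The log2FC was 1.05 ± 0.06 (SE, adjusted p = 1.7e-07 by limma), a 2.07-fold difference, for a gene (ENSMUSG00000005413) at chr8:75820241-75827217 of GRCm39, plus strand. Its constitutive relative Hmox2 had a log2FC of -0.13 and was not called. Blvra and Blvrb, the biliverdin reductases that act after heme oxygenase, went in opposite directions, Blvra with a log2FC of -0.91 and Blvrb with one of 0.67.

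Heme genes as a list had 19 members, of which 18 were tested, 8 were higher and 4 lower, with a median log2FC of 0.09. That is 66.7% called, beside 51.3% of all tested genes. Slc48a1, which exports heme from lysosomes, rose with a log2FC of 0.55, and Uros, an enzyme of heme synthesis, with one of 0.56. Hpx, which binds free heme, rose from a mean of 17.3 to 36.6 normalized counts (log2FC 1.10 ± 0.34, SE), a low gene whose log2FC was 0.74 without NT replicate 3 (adjusted p = 0.058 by limma) and which was also not called without KE replicate 2 (1.08) or KE replicate 3 (0.99). Hp, which binds free hemoglobin, fell from 153 to 76.9 (log2FC -0.97). Cd163, the macrophage receptor for hemoglobin bound to haptoglobin, did not pass the mean filter.

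The ferritin chains parted. Fth1 had 167140, 164638 and 151496 normalized counts in the KE replicates and 115100, 130369 and 101822 in the NT replicates. Even the lowest KE culture was above the highest NT culture, but the NT cultures were spread widely. The log2FC was 0.48 ± 0.10 (SE, adjusted p = 0.0015 by limma), a 1.39-fold difference. It was 0.79 after quantile normalization. Fth1 (ENSMUSG00000024661) lies at chr19:9957911-9962462 of GRCm39, plus strand.

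Ftl1, in contrast, had 57769, 59064 and 56451 normalized counts in KE and 58363, 61675 and 55391 in NT. The KE values lay inside the NT range. Its log2FC was -0.02, with a 95% interval of -0.16 to 0.13 (adjusted p = 0.85 from limma). The gene (ENSMUSG00000050708) lies at chr7:45107367-45109308 of GRCm39, minus strand. Both ferritins have processed pseudogenes that can share their reads, and the rows of these pseudogenes held at most 413 normalized counts, in Ftl1-ps1.

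The size factor of a culture cancels in the ratio of Fth1 to Ftl1. This ratio was 2.89, 2.79 and 2.68 in the KE replicates and 1.97, 2.11 and 1.84 in the NT replicates. All 3 KE ratios were higher, a difference of 0.50 on the log2 scale (exact permutation test, two-sided p = 0.1, the smallest that 3 cultures against 3 can give). After quantile normalization, an alternative added after the data were seen, the difference was 0.85. Ftmt, the mitochondrial ferritin, is listed at 0 throughout, and Ncoa4, the receptor that delivers ferritin to lysosomes, had a log2FC of 0.07 and was not called. In the list of 7 storage, delivery and export genes, 5 were tested, 1 was higher (Prnp, 0.50) and 2 were lower (Heph, -0.33, and Pcbp2, -0.20). That is 60% called, beside 51.3% of all tested genes. The call of Heph was lost without KE replicate 1 (-0.34), without NT replicate 3 (-0.28) and after quantile normalization (-0.25).

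Tfrc, which brings in iron bound to transferrin, was not called in the fit of group alone. It had 7031, 6187 and 6903 normalized counts in KE and 7980, 6996 and 7497 in NT. The groups overlapped, KE replicate 1 being above NT replicate 2. The log2FC was -0.16, with a 95% interval of -0.31 to -0.01 and an adjusted p of 0.073 from limma. Without NT replicate 2 it was -0.21 with an adjusted p of 0.040 from limma, which would be called. Tfrc would also be called lower in a fit with a block for replicate number (-0.16, adjusted p = 0.018 by limma). Over all alternatives the adjusted p from limma was 0.018 to 0.24. Tfrc (ENSMUSG00000022797) lies at chr16:32427556-32451612 of GRCm39, plus strand.

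Iron regulatory proteins act in opposite directions on Tfrc, through the stability of its mRNA, and on Fth1, through translation. A ratio of RNA levels therefore does not measure their activity. The ratio of Tfrc to Fth1 in the RNA was 0.042, 0.038 and 0.046 in the KE replicates. In the NT replicates it was 0.069, 0.054 and 0.074. All 3 KE ratios were below all 3 NT ratios, by -0.64 on the log2 scale (exact permutation test, two-sided p = 0.1, again the smallest possible), and by -0.97 after quantile normalization. Transcripts of the iron regulatory proteins themselves, Aco1 and Ireb2, had log2FC of -0.26 and -0.14, of which only that of Aco1 was called, and Fbxl5, which degrades Ireb2, had one of 0.04 and was not called.

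**Figure D2:**
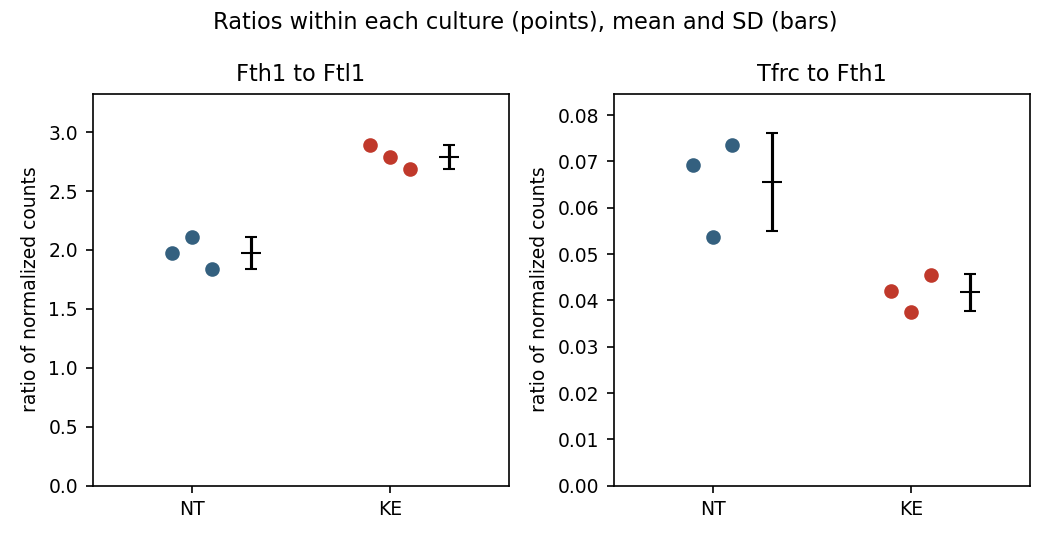
Ratio of normalized counts (y axes, from 0) of Fth1 to Ftl1 and of Tfrc to Fth1 within each NT (blue) and KE (red) culture, with group mean and SD in black. The first ratio is higher and the second lower in all 3 KE cultures.

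Trf, the iron carrier that Tfrc binds, fell. It had 1221, 1449 and 1356 normalized counts in the KE replicates and 3287, 2964 and 3595 in the NT replicates. Every KE culture was below every NT culture. The log2FC was -1.29 ± 0.08 (SE, adjusted p = 4.4e-07 by limma), the NT mean being 2.45-fold that of KE. Trf (ENSMUSG00000032554) lies at chr9:103081200-103107814 of GRCm39, minus strand.

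In the brain Trf is made largely by oligodendrocytes. Of 15 oligodendrocyte lineage markers, 13 were tested, of which 9 were lower and 1 higher in KE, with a median log2FC of -0.55. Their summed normalized count was 30005 to 35072 in KE and 38487 to 38687 in NT, with Olig1 and Olig2 the highest. Of the markers of mature oligodendrocytes, Mog and Opalin did not pass the mean filter, and Mbp had a log2FC of -1.89. Per 1000 summed marker counts, Trf was 39.7 to 45.2 in KE and 77.0 to 93.0 in NT. Olig1, with a log2FC of only -0.20, and Olig2, with one of -0.55, make up most of that sum, while 3 of the markers, Mbp among them, had a lower log2FC than Trf. The part of these cells in the result was not tested.

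Slc11a1 fell most among the 10 genes. There were 69.7, 137 and 98.2 normalized counts in the KE replicates and 1074, 1426 and 947 in the NT replicates. The highest KE culture was far below the lowest NT culture. The NT mean was 11.3-fold that of KE, with a log2FC of -3.52 ± 0.22 (SE, adjusted p = 2.9e-07 by limma). Slc11a1 (ENSMUSG00000026177) lies at chr1:74414303-74425448 of GRCm39, plus strand.

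Slc40a1 was the lowest of the 10 genes. It had 9.06, 6.27 and 13.6 normalized counts in the KE replicates and 60.2, 64.3 and 65.4 in the NT replicates. The groups were apart, although the KE values rest on few reads. The NT mean was 6.56-fold that of KE, with a log2FC of -2.65 ± 0.31 (SE, adjusted p = 3.4e-05 by limma). Slc40a1 (ENSMUSG00000025993) lies at chr1:45947211-45965683 of GRCm39, minus strand.

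Slc11a1 is a gene of macrophages and microglia, and Slc40a1 is high in macrophages. Of 22 microglia and macrophage markers, 21 were tested and all 21 were lower in KE, with a median log2FC of -3.33, and Siglech is listed at 0 in every culture. Their summed normalized count was 7551 to 10626 in KE and 66036 to 82543 in NT, an NT mean 8.92-fold that of KE, with Adgre1 the highest. Per 1000 of these summed counts, Slc11a1 was 9.23, 12.9 and 12.9 in the KE replicates and 13.2, 17.3 and 14.3 in the NT replicates, a 0.781-fold difference. For Slc40a1 the values were 1.20, 0.590 and 1.79 in KE and 0.739, 0.780 and 0.991 in NT, which overlapped, with a KE mean 1.43-fold that of NT. Relative to these markers Slc11a1 was thus lower by far less than in the normalized counts and the mean of Slc40a1 was not lower, and the part of the marked cells in them was not tested.

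**Figure D3:**
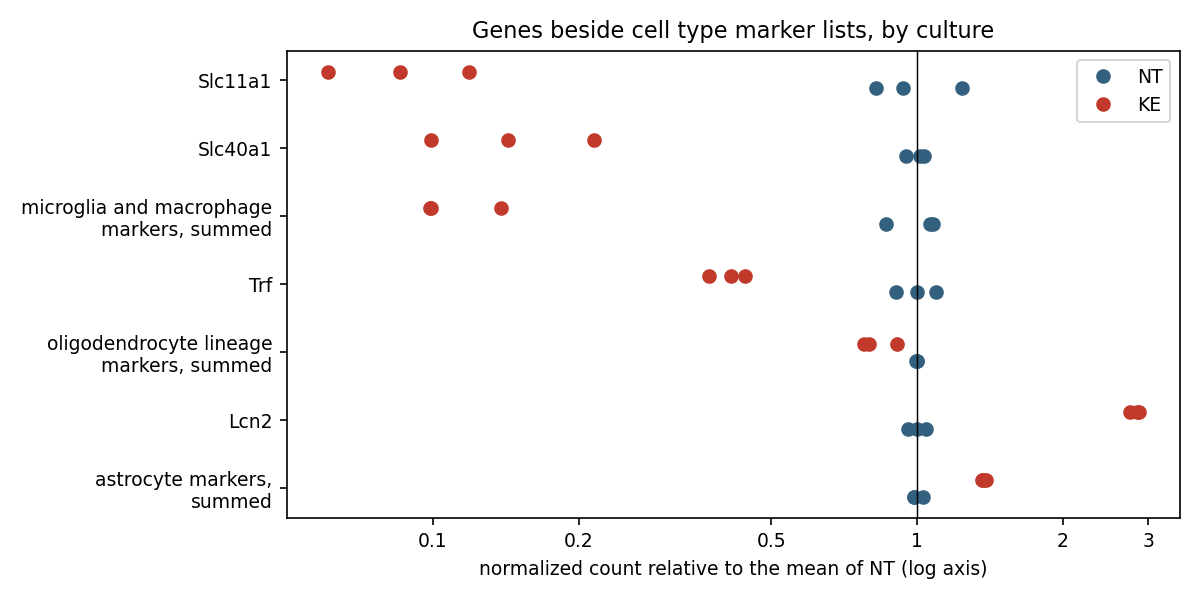
Normalized count relative to the NT mean (x axis, log scale) of Slc11a1, Slc40a1, Trf and Lcn2 and of 3 summed marker lists, for each NT (blue) and KE (red) culture. Slc11a1 and Slc40a1 lie in KE near the level of the microglia and macrophage markers, and Trf lies below the summed oligodendrocyte lineage markers, most of which is Olig1 and Olig2.

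Cp, whose protein oxidizes iron as ferroportin releases it, rose slightly from a high level. There were 95665, 91517 and 103796 normalized counts in the KE replicates and 83474, 76884 and 77485 in the NT replicates. The KE cultures were all higher, the nearest pair being KE replicate 2 and NT replicate 1. The log2FC was 0.29 ± 0.07 (SE, adjusted p = 0.0066 by limma), a 1.22-fold difference. Cp (ENSMUSG00000003617) lies at chr3:20011090-20063930 of GRCm39, plus strand. The choroid plexus, another source of Cp, is marked by Ttr, which did not pass the mean filter, and 6 such markers summed to 51.4 to 72.1 in all cultures, of which 2 were tested and 0 were called by limma (0 also at an unadjusted p under 0.05).

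Levels of different genes were compared as normalized counts per kilobase of the canonical transcript. In NT the order was Fth1 (124611), Ftl1 (60347), Lcn2 (28799), Cp (19072), Hmox1 (5683), Steap4 (3805), Tfrc (1530), Trf (1277), Slc11a1 (442) and Slc40a1 (18.3). The ranges of neighbours in that order did not overlap over the 3 NT cultures. In KE the order differed at one point, Lcn2 (81382) standing above Ftl1 (59609), and no neighbours overlapped. With the length of all annotated exons in place of the canonical transcript, a choice made after the data were seen, Ftl1 (43606) was above Fth1 (32887) in NT, while in KE Hmox1 (10557) was above Cp (8656) and Ftl1 (43073) was above Lcn2 (28389), so that the order within these pairs, and the point at which KE and NT differed, depend on the length used.

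Beyond the 10 genes, 66 other genes of iron and heme were compared in 5 lists. Of the 57 tested, 21 were higher and 16 lower in KE, which is 64.9% called beside 51.3% of all tested genes, with a median log2FC of 0.08. Most of these differences were small, 11 of the called genes having an absolute log2FC of at least 0.5. In the uptake and reduction list, 11 of 13 genes were tested, 4 were higher and 3 lower. Lrp2, also known as megalin and a receptor for Lcn2, fell with a log2FC of -0.93, whereas Slc22a17, another Lcn2 receptor, had one of 0.14 and was not called. Slc39a8, a zinc and iron importer, fell with a log2FC of -0.64. Slc11a2, the endosomal iron transporter that works with Tfrc, rose with one of 0.30.

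In the sensing and hepcidin list, 6 of 10 genes were tested, 1 was higher and 2 were lower. Hfe, which binds Tfrc, rose with a log2FC of 0.58. The hepcidin genes Hamp and Hamp2 did not pass the mean filter. In the mitochondrial list all 17 genes were tested, 7 were higher and 5 lower. Of the tested genes, 50% were called in the sensing list and 70.6% in the mitochondrial list, beside 51.3% of all tested genes. Nfu1, which delivers iron-sulfur clusters, rose with a log2FC of 0.37.

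**Figure D4:**
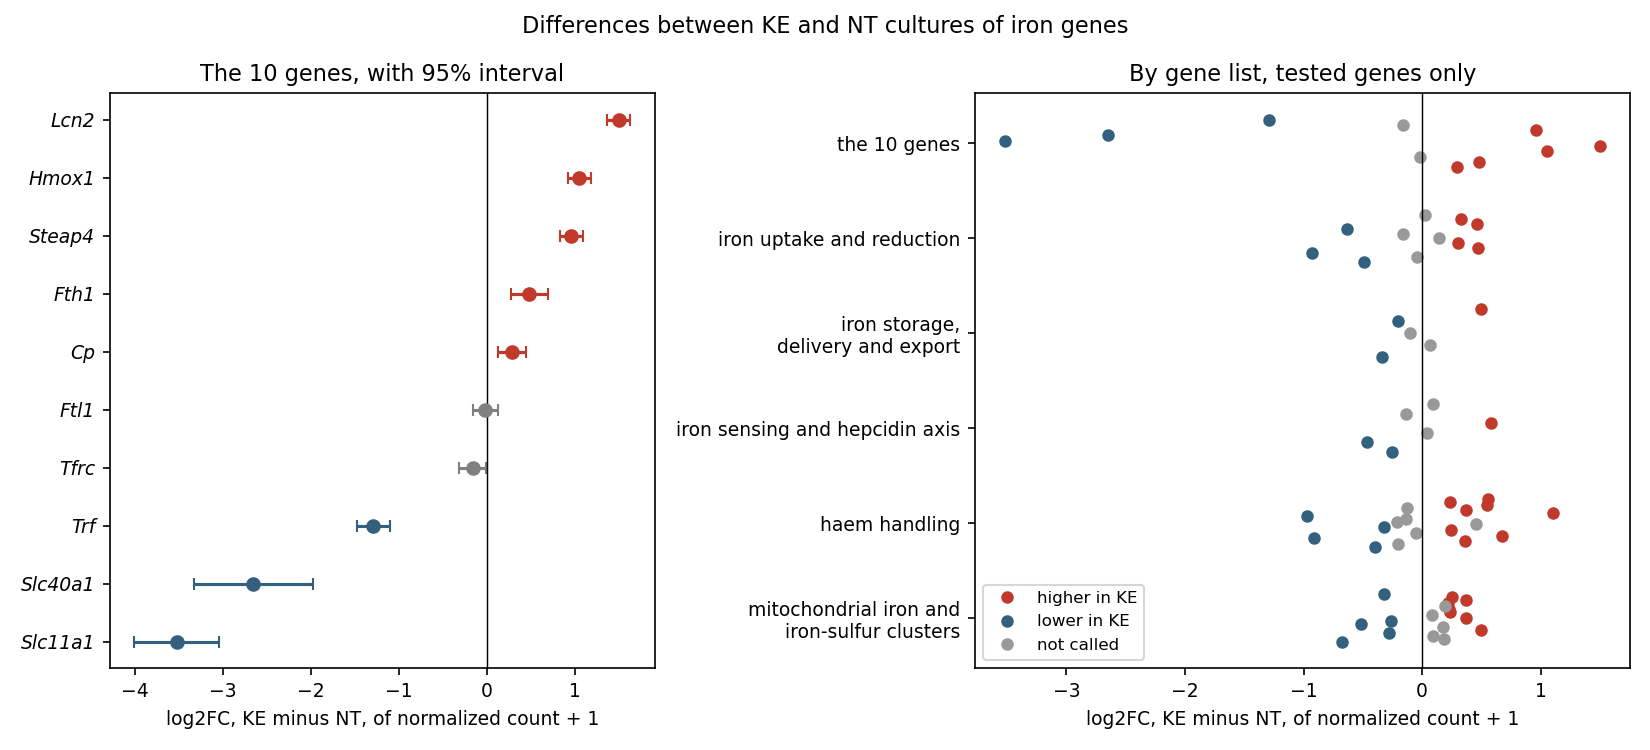
The log2FC (x axes) of the 10 genes with 95% intervals from limma, left, and of the tested genes of each list, right, colored by call at an adjusted p-value under 0.05 (red higher in KE, blue lower, grey not called). The 10 genes range from -3.52 to 1.50, while the tested genes of the 5 other iron and heme lists shown range from -0.97 to 1.10.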

How the data were processed

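Per the labels and the study's methods, the authors trimmed reads with Trim Galore, aligned them with STAR, quantified genes with Salmon and normalized with DESeq2; the methods name GRCm39 and Gencode vM28 for mouse, whereas the processing notes in the labels list GRCh38. The deposited signal is an estimated count per gene divided by a size factor per culture, for 55357 genes in 6 cultures. The methods mention a batch adjustment without naming batches, so none was modelled. At most 77.7% of values under 20 lay within 0.1 of a whole multiple of the most frequent low value, where 95% was required, so whole reads were not recovered and no count test was run; total depth is approximate, and the error of a value is the spread over 3 cultures.

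The log2 of these values plus 1 entered a limma fit (version 3.58.1, R 4.3.3) of group alone with a variance trend, over the 15280 genes whose mean reached 10. P-values are two-sided and adjusted by Benjamini-Hochberg over all tested genes. Ratios used exact permutation over 20 splits. Gene models and transcripts came from Gencode vM39 on GRCm39 (54749 of 55357 identifiers matched), and promoters from RefSeq on GRCm38.p6.

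Named genes were the 10 genes, Braf, other iron genes called with an absolute log2FC of at least 0.5, the regulator and cytokine lists, and the 5 nearest to Lcn2; other iron genes named for their role, and single markers, were chosen after their values were seen. Values of some single genes are not given. The 10 genes and all lists were chosen with earlier results of these data known. Ratios to summed markers were also added after the values were seen. Same-numbered KE and NT cultures were not treated as pairs. Alternatives were other pseudocounts, filters and scalings, no variance trend, the replicate block, ferritin pseudogenes and leaving out each culture.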

Additional observations from a re-analysis of the deposited data

How the results depend on the processing

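Of 983 values recomputed under another setting, 953 kept their call, or as counts moved by at most 1.5 times, or as ratios kept their direction. Of the genes with a call before or after, 0 reversed direction. Changes of sign in genes not called both times were not counted, such as Ftl1 at 0.02 without NT replicate 2 against -0.02. The ratios after quantile normalization and the levels by length of all exons are not among the 983. Among 51 other genes named, 6 lost their call under at least 1 setting (Steap1, Steap2, Rela, Hif1a, Hpx and Heph) and 1 gained one (Nfkb1). Among the 10 genes the call changed for Tfrc (log2FC -0.16, not called) alone, which was called lower without NT replicate 2 and in the fit with the replicate block (adjusted p = 0.018 from limma, 0.018 to 0.24 over its alternatives). Leaving out 1 culture at a time gave 14 to 18 higher and 13 to 17 lower among the other iron genes. With all cultures these were 21 and 16, and the cause of the difference was not tested. The log2FC of Lcn2 stayed between 1.47 and 1.53 over 14 alternatives, that of Fth1 between 0.39 and 0.79, that of Slc11a1 between -3.76 and -3.28 and that of Slc40a1 between -2.91 and -2.25. With a mean of at least 50, Slc40a1 was not tested. With the block, 5 of the 10 genes were higher and 4 lower, and over all genes 3967 were higher and 4079 lower, against 3870 and 3974 without it. The deviations of same-numbered cultures correlated at 0.059 to 0.066 across genes and each culture correlated best with its own number, a hint from the data, not the design. Quantile normalization, added for the ratios after the data were seen, gave log2 differences of 0.85 for Fth1 to Ftl1 (0.50 before) and -0.97 for Tfrc to Fth1 (-0.64 before), and the cause was not tested. It moved the median of all tested genes to 0.029. The KE values of Slc40a1, 6.27 to 13.6 normalized counts, rest on few reads.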
